A study of Homo sapiens with 6 samples.

Results

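The phosphoinositide 3-kinase (PI3K) to mTOR pathway was followed through 9 core genes, which were found by Ensembl identifier, with the version number removed, among the 60612 genes of the count table. They were the PI3K catalytic subunit genes PIK3CA and PIK3CB, the regulatory subunit gene PIK3R1, the kinases AKT1 and AKT2, MTOR and its partner RPTOR, and TSC1 and TSC2. All 9 passed the filter on low counts, as did 10863 genes in all. Messenger RNA was measured in parental ZR-75-1 cells, an oestrogen receptor-positive human breast cancer line, that had been cultured for 4 days with 500 nM abemaciclib, an inhibitor of CDK4 and CDK6, or with the same volume of DMSO, the solvent. Each group held 3 libraries, and both groups were grown in serum-supplemented RPMI-1640 medium, and the labels call the cells parental and give no genetic change. The labels only number the replicates, and the study describes its cell line RNA-seq as made from independent cultures. A single cell line stands behind all values.

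PI3K is a lipid kinase on the inner face of the plasma membrane that acts downstream of growth factor receptors, and its lipid product brings AKT to the membrane, where AKT is phosphorylated and activated. AKT restrains the TSC complex and thereby frees the small GTPase RHEB, which activates mTOR complex 1 (mTORC1) on the lysosome when amino acids are present, and it also keeps FOXO transcription factors out of the nucleus. In luminal breast cancer the pathway is often activated by mutation, and it works mainly through phosphorylation, which mRNA counts do not measure.

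The libraries held 3317860 to 4013156 counts, so that 3 counts, taken as the detection floor, were worth 0.74 to 0.909 CPM (counts relative to the scaled size of the library). Such floors cover counting error only, since reads were counted without molecular identifiers. All 8 luminal epithelial markers were detected, with summed levels of 7281 to 7878 CPM with DMSO and 10840 to 12330 CPM with abemaciclib. Of these, 3 were called higher (TFF1, KRT19 and ESR1) and 1 lower (KRT18), beside 25.7% of all genes tested called in either direction. Most of the rise in the sum came from TFF1 (622 to 3511 CPM between the group means) and KRT19 (3131 to 4280 CPM). ESR1 went from 211 to 373 CPM and KRT18 from 689 to 543 CPM. KRT8, EPCAM, GATA3 and FOXA1 were not called, so the sum does not describe all 8. KRT5, KRT14 and TP63, which define basal cells, were at 0 in every library, and the 5 basal markers summed to 7.25 to 13.3 CPM with DMSO and 0.987 to 2.702 CPM with abemaciclib, all of it from ACTA2 and MYLK. The 6 fibroblast markers summed to 10.4 to 15.8 CPM in both groups, nearly all of it from COL1A1. Of the others, 3 were at 0 and LUM and DCN had at most 1 count in any library. The summed immune and endothelial markers did not exceed 1.51 CPM. The proliferation genes MKI67, TK1 and CCNA2 were all lower with abemaciclib, and MKI67 fell by 6.71 on the log2 scale. In bulk RNA of this kind, fewer cells of a type and less RNA per cell cannot be told apart, which holds for each difference given here.

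Of the 9 genes, 1 was called higher with abemaciclib and 0 were called lower by edgeR's quasi-likelihood test at an adjusted P under 0.05, beside 12.5% of all genes tested called higher and 13.3% called lower (25.7% in either direction). PIK3R1 was the gene that rose. At an unadjusted P under 0.05 there were 2 higher and 0 lower. That threshold is passed by many genes, since AKT2, at an edgeR unadjusted P of 0.0496, ranked 3918 among the 10863 genes tested. DESeq2 called 1 of the 9 higher and 0 lower, beside 1069 higher and 1166 lower over the 11715 genes given an adjusted P. These backgrounds also apply to the lists below. The groups did not overlap for 1 of the 9 genes, beside 39.1% of all genes tested. The median log2 fold change of the 9 was 0.042, beside −0.0018 over all genes tested, and their median absolute log2 fold change was 0.071, beside 0.317 over all genes tested.

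**Figure D1:**
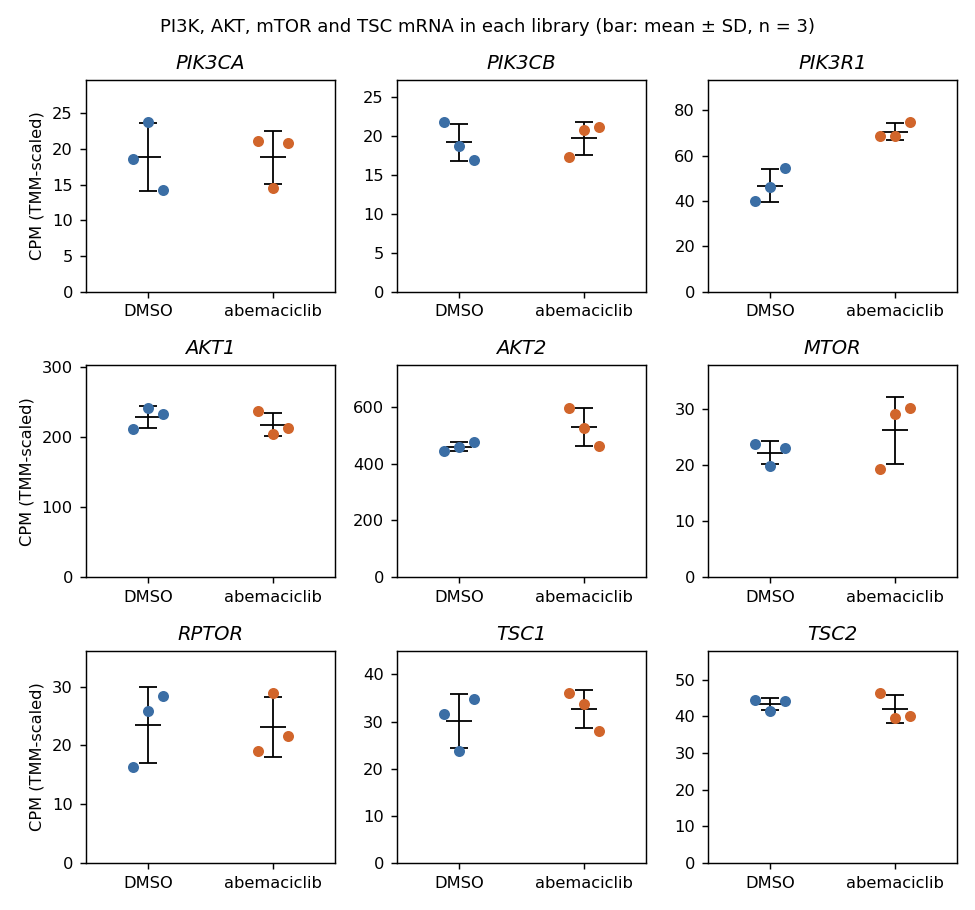
Level of each of the 9 genes in each library, in TMM-scaled CPM on an axis from 0, with DMSO on the left and abemaciclib on the right of each panel; points are libraries and bars the mean ± SD of 3. PIK3R1 is the single panel in which the groups are apart (40.0 to 54.5 CPM against 68.6 to 74.8 CPM), and AKT2 has 2 abemaciclib libraries above all DMSO libraries and 1 among them.

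PIK3R1 encodes p85α and its shorter isoforms, the regulatory subunits that bind the catalytic subunit, keep it stable and inhibited at rest, and dock it on activated receptors. The gene lies on chromosome 5 from 68215740 to 68301821 on the plus strand of GRCh38. Its level was 40.0, 46.0 and 54.5 CPM in DMSO replicates 1, 2 and 3, and 68.7, 68.6 and 74.8 CPM in abemaciclib replicates 1, 2 and 3. The 3 abemaciclib libraries lay close together and above all 3 DMSO libraries, which were spread more widely. The group means were 46.9 ± 7.28 CPM for DMSO and 70.7 ± 3.59 CPM for abemaciclib (SD, n = 3 each). The gene rose 1.51-fold (95% interval 1.23 to 1.86, log2 fold change 0.59, SE 0.15, edgeR adjusted P = 0.00313). It ranked 1307 among all genes tested by P value. The call held in each alternative fit, with adjusted P values between 0.00142 and 0.0349, the highest of them without DMSO replicate 1, when the log2 fold change was 0.49.

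Reads came from the 3′ ends of transcripts, so the counts sum all PIK3R1 isoforms and do not tell which start site was used. RefSeq lists 4 start sites for the gene on GRCh38.p14, and the promoter windows of the first pair are printed because PIK3R1 was the gene called, beside the window of its catalytic partner PIK3CA, which was not. Each runs 5′ to 3′ on the plus strand from 250 bases before to 50 bases after the start, and capitals mark matches on either strand to the GC box GGGCGG, a motif of SP-family factors, or the forkhead motif TGTTTAC, which FOXO factors can bind.
PIK3R1 start 1 (chr5:68215506-68215805): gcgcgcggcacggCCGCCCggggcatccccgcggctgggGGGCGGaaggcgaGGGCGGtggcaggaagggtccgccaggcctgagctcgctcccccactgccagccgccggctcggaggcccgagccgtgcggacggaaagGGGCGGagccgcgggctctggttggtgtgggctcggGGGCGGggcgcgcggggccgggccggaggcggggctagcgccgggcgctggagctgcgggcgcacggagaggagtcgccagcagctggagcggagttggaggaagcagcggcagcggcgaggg
PIK3R1 start 2 (chr5:68288269-68288568): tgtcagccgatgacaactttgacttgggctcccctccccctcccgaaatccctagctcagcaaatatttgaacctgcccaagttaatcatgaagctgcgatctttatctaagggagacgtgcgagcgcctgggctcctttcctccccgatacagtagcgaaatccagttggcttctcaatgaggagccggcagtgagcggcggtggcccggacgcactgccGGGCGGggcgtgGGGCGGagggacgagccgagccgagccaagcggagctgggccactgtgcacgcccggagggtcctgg
PIK3CA start 1 (chr3:179148107-179148406): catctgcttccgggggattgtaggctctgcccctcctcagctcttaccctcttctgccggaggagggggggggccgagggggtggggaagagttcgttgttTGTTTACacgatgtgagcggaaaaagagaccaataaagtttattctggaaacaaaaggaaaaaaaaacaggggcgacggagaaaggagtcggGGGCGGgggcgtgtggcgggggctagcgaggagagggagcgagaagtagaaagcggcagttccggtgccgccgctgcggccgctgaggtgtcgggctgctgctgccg
The first PIK3R1 window was 80% G and C and held 5 GC boxes, and the second was 62.3% G and C and held 2. The windows at the other PIK3R1 starts, which are 40% and 42.3% G and C, held 0 GC boxes. A GC box was found in 12 of the 16 RefSeq windows of the 9 genes and in 45% of 35116 windows over all genes. The forkhead motif was found in 1 of the 16, the PIK3CA window, and in 3.42% of all windows. The E-box CACGTG was found in 1, at TSC2, and in 7.26% of all windows. The E2F motifs TTTCCCGC and TTTGGCGC and the oestrogen response element GGTCANNNTGACC were found in 0 of the 16, and in 1.63%, 0.652% and 0.057% of all windows. A match is a description of the letters and no measure of binding, and the absence of one says nothing about the factor.

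PIK3CA encodes p110α, the catalytic subunit most often mutated in breast cancer, and lies on chromosome 3 from 179148114 to 179240093 on the plus strand. Its level was 18.6, 23.8 and 14.2 CPM in the DMSO libraries and 21.2, 14.6 and 20.8 CPM in the abemaciclib libraries. The groups overlapped over nearly their whole range. The means were 18.9 ± 4.77 CPM and 18.8 ± 3.72 CPM (SD, n = 3 each), a fold of 0.995 with a 95% interval of 0.704 to 1.41 (edgeR adjusted P = 0.988). PIK3CA had 47 to 80 counts per library, and 3403 of the 6000 bases of its last exon are shared with KCNMB3 on the opposite strand, which had 0 to 5 counts. The strand setting of the counting was not given in the sources used here.

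PIK3CB encodes p110β, a second catalytic subunit that also receives signals from G protein-coupled receptors, and lies on chromosome 3 from 138652698 to 138834928 on the minus strand. It was measured at 21.8, 18.7 and 17.0 CPM with DMSO and at 17.2, 20.7 and 21.1 CPM with abemaciclib. Again every abemaciclib library lay within the DMSO range. The fold was 1.03 with a 95% interval of 0.750 to 1.41 (edgeR adjusted P = 0.921). PIK3CA made up 49.2 ± 5.84% of the counts of both catalytic genes with DMSO and 48.7 ± 6.98% with abemaciclib (SD, n = 3 each), a difference of −0.521 percentage points on 103 to 155 counts per library (two-sided exact permutation P = 0.9, adjusted P = 0.9 over 3 shares tested, of which 1 is not reported). With 3 libraries against 3 this test cannot give a P below 0.1.

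AKT2 encodes the AKT isoform known for its part in insulin-stimulated glucose uptake, and lies on chromosome 19 from 40230317 to 40285536 on the minus strand. It was measured at 446, 459 and 475 CPM in the DMSO libraries and at 597, 526 and 464 CPM in the abemaciclib libraries. Abemaciclib replicates 1 and 2 were above every DMSO library, and replicate 3 lay within the DMSO range. The means were 460 ± 14.8 CPM and 529 ± 66.5 CPM (SD, n = 3 each), and the fold was 1.15 with a 95% interval of 1.00 to 1.32. The gene was not called (edgeR unadjusted P = 0.0496, adjusted P = 0.138). Without abemaciclib replicate 3 the log2 fold change went from 0.20 to 0.29 and the gene was called (edgeR adjusted P = 0.00695), and over the libraries left out in turn it ranged from 0.11 to 0.29. The fit without abemaciclib replicate 3 also called more genes in all, 1412 higher and 1529 lower, against 1354 and 1442.

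AKT1, on chromosome 14 from 104769349 to 104795751 on the minus strand, encodes the AKT isoform tied to growth and survival. Its level was 211, 242 and 233 CPM in the DMSO libraries and 237, 204 and 213 CPM in the abemaciclib libraries. The groups overlapped, and the fold was 0.952 with a 95% interval of 0.824 to 1.10 (edgeR adjusted P = 0.673). Of the 1072 bases of its last exon, 663 are shared with ENSG00000258430 on the opposite strand, which had 0 counts in every library. AKT1 and AKT2 had the most counts of the 9 genes (728 to 2130 per library) and the narrowest intervals.

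MTOR encodes the kinase of both mTOR complexes and lies on chromosome 1 from 11106535 to 11262556 on the minus strand. It was measured at 23.8, 19.9 and 23.0 CPM with DMSO and at 19.4, 29.1 and 30.3 CPM with abemaciclib. Abemaciclib replicates 2 and 3 were above the DMSO libraries and replicate 1 was below them. The means were 22.2 ± 2.06 CPM and 26.2 ± 5.99 CPM (SD, n = 3 each), a fold of 1.18 with a 95% interval of 0.875 to 1.60 (edgeR adjusted P = 0.447).

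RPTOR encodes raptor, the scaffold that presents substrates to mTORC1, and lies on chromosome 17 from 80544819 to 80966371 on the plus strand. Its level was 16.2, 25.8 and 28.5 CPM with DMSO and 19.1, 28.9 and 21.6 CPM with abemaciclib. The groups overlapped widely, and the fold was 0.992 with a 95% interval of 0.715 to 1.38 (edgeR adjusted P = 0.977). Of the 2107 bases of its last exon, 130 are shared with ENSG00000261924 on the opposite strand, which had 0 counts in every library. RPTOR and MTOR had 56 to 118 counts per library, and a change of the size seen for PIK3R1 lies outside the RPTOR interval but inside that of MTOR.

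TSC1 encodes hamartin, which stabilises the TSC complex, and lies on chromosome 9 from 132891348 to 132946874 on the minus strand. Its level was 31.6, 23.8 and 34.8 CPM with DMSO and 36.0, 33.8 and 28.1 CPM with abemaciclib. The groups overlapped, with a fold of 1.08 and a 95% interval of 0.826 to 1.42 (edgeR adjusted P = 0.714).

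TSC2 encodes tuberin, the GTPase-activating subunit that switches RHEB off and the one that AKT phosphorylates, and lies on chromosome 16 from 2047967 to 2089491 on the plus strand. It was measured at 44.4, 41.6 and 44.2 CPM with DMSO and at 46.3, 39.5 and 40.0 CPM with abemaciclib. The 2 lower abemaciclib libraries were just below the DMSO range and the other just above it, with a fold of 0.964 and a 95% interval of 0.770 to 1.21 (edgeR adjusted P = 0.851). Of the 1046 bases of its last exon, 784 are shared with PKD1 on the opposite strand, which had 47 to 90 counts against 140 to 160 for TSC2. TSC1 made up 40.7 ± 3.93% of the counts of both TSC genes with DMSO and 43.7 ± 2.43% with abemaciclib (SD, n = 3 each; two-sided exact permutation P = 0.5, adjusted P = 0.75).

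In order of CPM with DMSO, and with no correction for how well each 3′ end is captured, the genes ran AKT2, AKT1, PIK3R1, TSC2, TSC1, RPTOR, MTOR, PIK3CB and PIK3CA. The library ranges of AKT2 and AKT1 were apart, as were those of AKT1 and PIK3R1 and those of TSC2 and TSC1. All other neighbours in this order overlapped. The levels of PIK3R1 over the 6 libraries followed most closely those of LPP (Pearson r = 0.996, from 34.4 to 80.1 CPM between the group means), DDAH2 (r = 0.990, from 11.5 to 19.2 CPM) and ZNF91 (r = 0.990, from 5.08 to 12.4 CPM). These were the closest of 9738 genes with at least 5 CPM, of which 431 had an r over 0.9. The points share their libraries and the contrast between the groups, so the r values are a description.

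**Figure D2:**
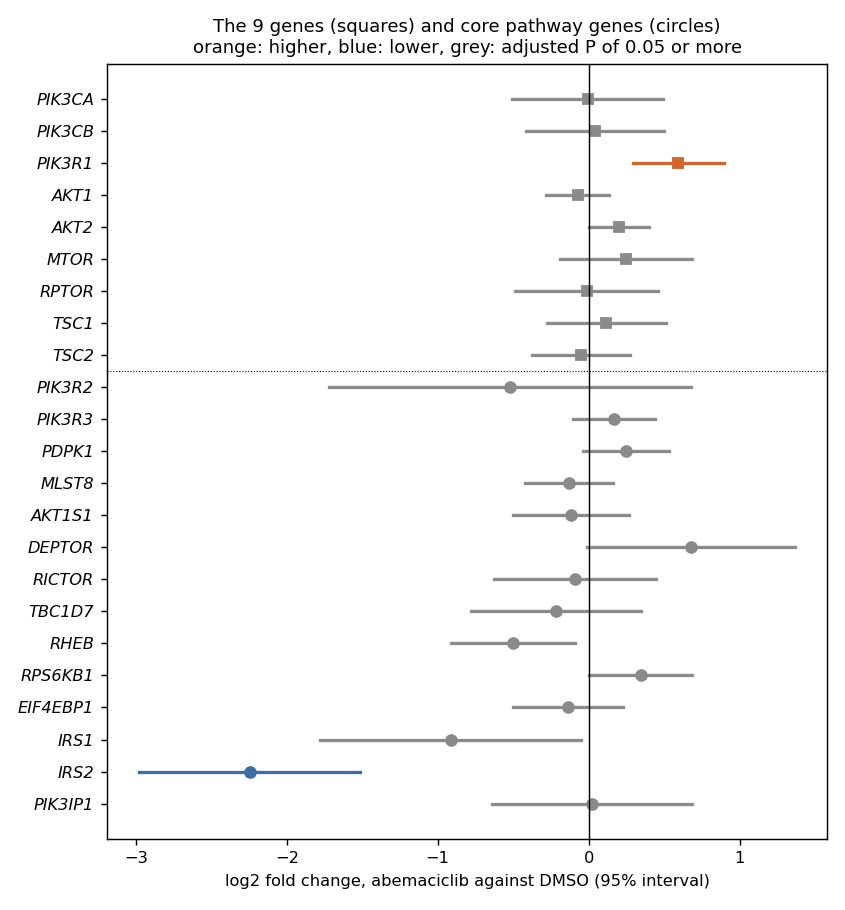
Log2 fold change of abemaciclib against DMSO with its 95% interval for the 9 genes (squares) and the core pathway genes named beside them (circles), coloured where the adjusted P was under 0.05. Among the squares the interval lies clear of 0 and the gene is called for PIK3R1 at 0.59, and the AKT2 interval starts at 0; among the circles IRS2 lies lowest at −2.25.

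The rest of the pathway was followed through 8 lists of genes by role. Of their 132 genes in the file, each counted once, 114 were tested, 11 were called higher (9.65%, beside 12.5% of all genes tested), 11 were called lower (9.65%, beside 13.3%) and 92 were not called. The median log2 fold change over the 114 was 0.054. The share called in either direction was 19.3%, beside 25.7% of all genes tested.

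**Figure D3:**
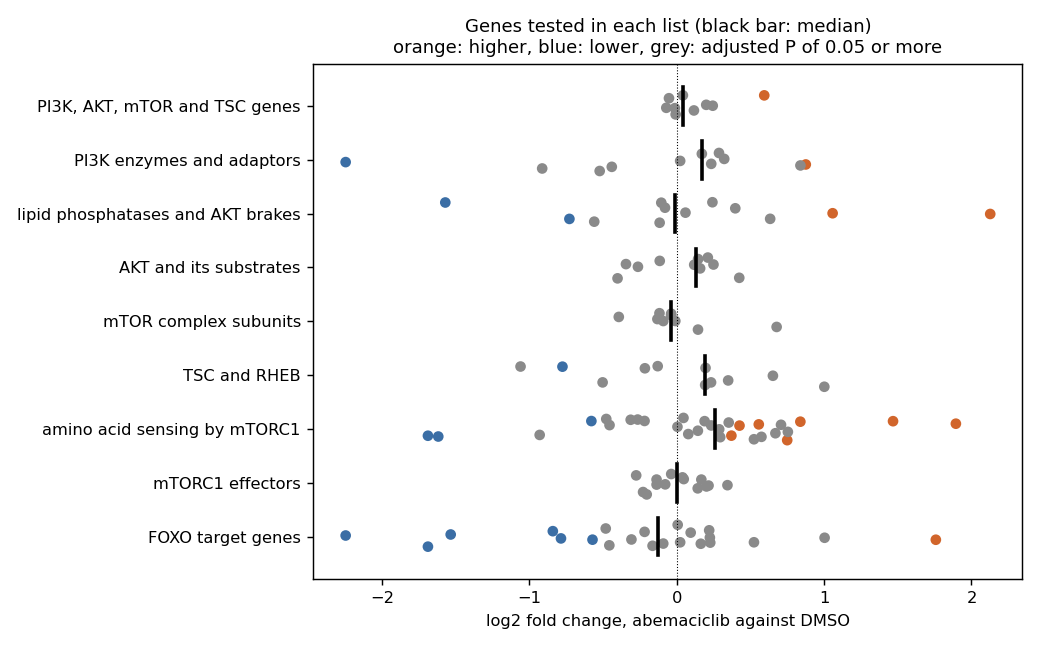
Log2 fold change of abemaciclib against DMSO for every tested gene of the 9 core genes and of each of the 8 lists, 1 point per gene, coloured where the adjusted P was under 0.05, with the list median as a black bar. The medians run from −0.13 for FOXO target genes to 0.26 for amino acid sensing, and the lists of AKT and its substrates, mTOR complex subunits and mTORC1 effectors hold no coloured point.

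Among 16 other PI3K enzymes and adaptors, 11 were tested, 1 was called higher and 1 lower (18.2%, beside 25.7% of all genes tested). The median log2 fold change was 0.17, and DESeq2 called 0 higher and 1 lower. IRS2, an adaptor that carries insulin and IGF receptor signals to PI3K, was measured at 22.3, 16.3 and 15.1 CPM with DMSO and at 6.05, 2.22 and 3.24 CPM with abemaciclib. All abemaciclib libraries were far below the DMSO libraries, and IRS2 fell to 0.211 of its DMSO level (log2 fold change −2.25, SE 0.36, edgeR adjusted P = 1.82e-05). Its relative IRS1 went from 7.93 to 4.22 CPM between the means and was not called (log2 fold change −0.91, SE 0.42, edgeR adjusted P = 0.116). PIK3C2B, a class II PI3K, rose 1.84-fold from 9.86, 7.72 and 7.27 CPM to 17.5, 15.0 and 13.2 CPM (edgeR adjusted P = 0.0258), with no overlap. That call was lost with DESeq2 (adjusted P = 0.0675) and in 4 of the 6 fits that left a library out, those without DMSO replicate 2 or 3 and without abemaciclib replicate 1 or 2 (log2 fold changes of 0.83, 0.79, 0.77 and 0.89). The other regulatory subunit genes were not called, and the last exons of PIK3R2 and PIK3R3 share 1408 and 211 bases with a read-through or neighbouring gene on the same strand, so that their counts are uncertain. PIK3R3 had a log2 fold change of 0.17 (SE 0.13, edgeR adjusted P = 0.383) and the low-count PIK3R2 one of −0.52 (SE 0.59, edgeR adjusted P = 0.571). PIK3IP1, which encodes a membrane inhibitor of PI3K, had a log2 fold change of 0.024 (SE 0.32, edgeR adjusted P = 0.969).

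Of 13 lipid phosphatases and AKT brakes, 12 were tested, 2 were called higher and 2 lower (33.3%, beside 25.7% of all genes tested). The median log2 fold change was −0.0099, and DESeq2 called 1 higher and 2 lower. TRIB3, a pseudokinase that binds AKT and a known target of the ATF4 stress factor, was measured at 63.8, 58.2 and 66.6 CPM with DMSO and at 18.8, 23.7 and 20.8 CPM with abemaciclib. It fell to 0.337 of its DMSO level in tight groups (log2 fold change −1.57, SE 0.17, edgeR adjusted P = 2.74e-08).

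PHLPP1, a phosphatase of AKT, fell from 47.0, 27.0 and 38.8 CPM to 21.2, 25.4 and 21.3 CPM (log2 fold change −0.73, edgeR adjusted P = 0.00885), with its lowest DMSO library close to the highest abemaciclib library. Without DMSO replicate 1 it was not called (log2 fold change −0.54, edgeR adjusted P = 0.0976). THEM4, which encodes an AKT-binding thioesterase, rose by 1.06 on the log2 scale (SE 0.36, edgeR adjusted P = 0.029). The THEM4 call was lost with DESeq2 (adjusted P = 0.069) and without DMSO replicate 1, DMSO replicate 2 or abemaciclib replicate 1. INPP4B, a lipid phosphatase named after its values were seen, had 8, 6 and 3 counts with DMSO and 32, 18 and 31 with abemaciclib, a 4.37-fold rise with a 95% interval of 2.08 to 9.18 (edgeR adjusted P = 0.00296).

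Of 15 genes of AKT and its substrates, the 9 core genes not included, 10 were tested and edgeR called 0, beside 25.7% of all genes tested. Of the 10, 0 had an unadjusted P under 0.05, beside at least 3918 of the 10863 genes tested, and 0 were called by DESeq2. Their log2 fold changes ran from −0.40 to 0.42 around a median of 0.13. PDPK1, the kinase that phosphorylates AKT in its activation loop, was measured at 96.6, 109 and 112 CPM with DMSO and at 150, 136 and 91.1 CPM with abemaciclib. The gene has a near-identical copy, PDPK2P, so that its counts are uncertain. As for AKT2, abemaciclib replicates 1 and 2 were above all DMSO libraries and replicate 3 was not. The log2 fold change was 0.25 (SE 0.14, edgeR adjusted P = 0.203). With each library left out in turn it ran from 0.11 to 0.44, with edgeR adjusted P values up to 0.659. Without abemaciclib replicate 3 it was 0.44 and the gene was called (edgeR adjusted P = 0.00259). As given for AKT2, that fit called more genes in all.

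Of 10 other mTOR complex subunits, 9 were tested and edgeR called 0, beside 25.7% of all genes tested. Of the 9, 0 had an unadjusted P under 0.05, beside at least 3918 of the 10863 genes tested, and 0 were called by DESeq2. The median log2 fold change was −0.038. MLST8, shared by both complexes, went from 62.5 to 57.1 CPM between the means (log2 fold change −0.13, SE 0.14, edgeR adjusted P = 0.555). RICTOR, the scaffold of mTORC2, had a log2 fold change of −0.091 (SE 0.26, edgeR adjusted P = 0.844), and AKT1S1, which encodes the mTORC1 inhibitor PRAS40, one of −0.12 (SE 0.19, edgeR adjusted P = 0.706). DEPTOR, an inhibitor of both complexes, went from 8.37 ± 2.31 to 13.3 ± 5.26 CPM (SD, n = 3 each) and was not called (log2 fold change 0.68, SE 0.34, edgeR adjusted P = 0.144). Without abemaciclib replicate 1, where it was 7.26 CPM, its log2 fold change was 0.96 and the gene was called (edgeR adjusted P = 0.0309). With each library left out in turn its log2 fold change ran from 0.47 to 0.96, with edgeR adjusted P values up to 0.409.

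Of 14 genes that act with TSC and RHEB, 11 were tested, 0 were called higher and 1 lower (9.09%, beside 25.7% of all genes tested). The median log2 fold change was 0.19. At an unadjusted P under 0.05 there were 1 higher and 3 lower, beside at least 3918 of the 10863 genes tested, and DESeq2 called 0. RHEB itself was measured at 28.1, 32.7 and 27.3 CPM with DMSO and at 18.5, 22.5 and 21.1 CPM with abemaciclib. Every abemaciclib library was below every DMSO library, yet RHEB was not called (log2 fold change −0.50, SE 0.20, edgeR adjusted P = 0.0646). TBC1D7, the gene of the smallest TSC complex subunit, had a log2 fold change of −0.22 (SE 0.27, edgeR adjusted P = 0.623). PRKAA1, a catalytic subunit gene of the energy sensor AMPK, fell from 16.5, 18.7 and 17.9 CPM to 8.77, 12.3 and 9.73 CPM (edgeR adjusted P = 0.0295). That call was lost with DESeq2 (adjusted P = 0.0847) and in 5 of the 6 fits that left a library out, all but the one without abemaciclib replicate 2.

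The list of amino acid sensing by mTORC1 was the longest. Of its 31 genes 30 were tested, 7 were called higher (23.3%, beside 12.5% of all genes tested) and 3 lower (10.0%, beside 13.3%), with a median log2 fold change of 0.26 (DESeq2 called 6 higher and 2 lower). Both directions occurred among the sensors and their relatives (CASTOR1 higher, SESN1 and SESN2 lower) and between the folliculin partners (FNIP1 higher, FNIP2 lower). The other called genes, LAMTOR1, LAMTOR2, LAMTOR3, RRAGB and WDR24, were all higher. Of the 5 genes of the Ragulator complex, which holds the Rag GTPases and mTORC1 on the lysosome, LAMTOR1, LAMTOR2 and LAMTOR3 rose. LAMTOR1 was measured at 255, 256 and 276 CPM with DMSO and at 353, 336 and 328 CPM with abemaciclib. The groups were tight and apart, a 1.29-fold rise (log2 fold change 0.37, SE 0.095, edgeR adjusted P = 0.0042). LAMTOR2 rose 1.34-fold, from 92.5, 87.3 and 83.3 CPM to 120, 110 and 123 CPM (edgeR adjusted P = 0.0071), and LAMTOR3 rose 1.79-fold, from 13.3, 14.6 and 12.7 CPM to 23.6, 22.7 and 26.5 CPM (edgeR adjusted P = 0.00612). LAMTOR5 and LAMTOR4 had log2 fold changes of 0.30 and 0.046 and were not called (edgeR adjusted P of 0.112 and 0.836).

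Among the sensors and their relays, CASTOR1, the arginine sensor that inhibits mTORC1 when arginine is scarce, rose 2.77-fold, from 4.64, 3.56 and 6.66 CPM to 13.9, 13.6 and 13.8 CPM (edgeR adjusted P = 0.00165), although 451 of the 572 bases of its last exon are shared with another gene on the same strand. WDR24, a gene of the GATOR2 complex, which CASTOR1 and the sestrins bind, rose 1.68-fold, from 20.6, 25.2 and 24.5 CPM to 48.4, 40.2 and 30.0 CPM (edgeR adjusted P = 0.00546). The abemaciclib libraries of WDR24 were spread widely but stayed above the DMSO libraries. SESN2, a leucine sensor and stress gene, fell from 105, 131 and 109 CPM to 73.5, 83.1 and 74.0 CPM (log2 fold change −0.58, edgeR adjusted P = 0.000805). SESN1, its relative, named after its values were seen, had a log2 fold change of −1.69 at a mean of 5.36 CPM with DMSO (edgeR adjusted P = 0.0219), which was not called by DESeq2 (adjusted P = 0.0674) or without DMSO replicate 2 or 3 or abemaciclib replicate 2 or 3.

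The folliculin partners went in opposite directions. FNIP2 fell from 16.0, 20.5 and 15.4 CPM to 5.14, 4.69 and 7.03 CPM (log2 fold change −1.62, SE 0.31, edgeR adjusted P = 0.000207). FNIP1 rose by 0.56 on the log2 scale (SE 0.19, edgeR adjusted P = 0.0318), a call lost with DESeq2 (adjusted P = 0.0788) and without any 1 of the DMSO libraries or abemaciclib replicate 1. Both encode partners of folliculin, which acts on the nucleotide state of the Rag GTPases. RRAGB, a Rag GTPase gene named after its values were seen, went from 1.87 to 7.12 CPM between the means (log2 fold change 1.89, SE 0.50, edgeR adjusted P = 0.00579). It had only 9, 5 and 5 counts with DMSO and 32, 21 and 24 with abemaciclib. With a library left out the edgeR adjusted P rose to as much as 0.0494.

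**Figure D4:**
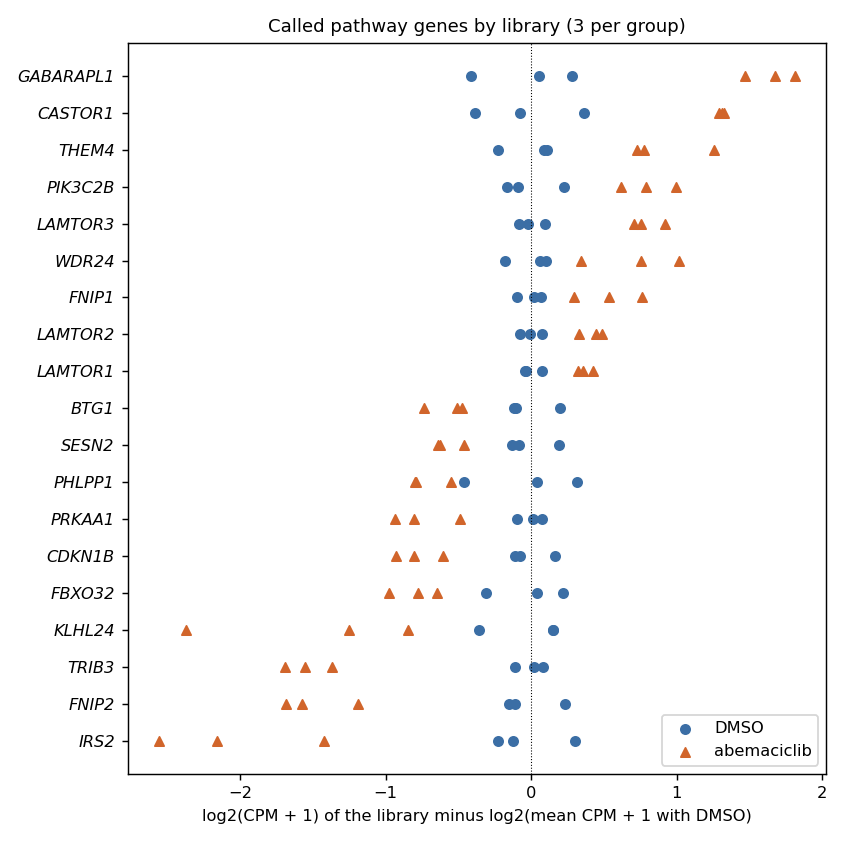
Called pathway genes with at least 5 CPM on average and no overlap between groups, 1 row of points per gene, plotted as log2(CPM + 1) of each library minus log2 of the DMSO mean CPM + 1; circles are the 3 DMSO and triangles the 3 abemaciclib libraries. GABARAPL1 lies farthest to the right and IRS2 farthest to the left, and the groups are closest for PHLPP1 (27.0 CPM in the lowest DMSO library and 25.4 CPM in the highest abemaciclib library).

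Of 16 mTORC1 effectors 14 were tested and edgeR called 0, beside 25.7% of all genes tested. At an unadjusted P under 0.05 there were 2 higher and 2 lower, beside at least 3918 of the 10863 genes tested, and DESeq2 called 0. The median log2 fold change was 0.0011. RPS6KB1, which encodes S6 kinase 1, went from 35.6 to 45.1 CPM between the means (log2 fold change 0.34, SE 0.17, edgeR adjusted P = 0.134). EIF4EBP1, which encodes the translation repressor that mTORC1 inactivates, had a log2 fold change of −0.14 (SE 0.18, edgeR adjusted P = 0.631).

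Among FOXO target genes, whose transcription rises when AKT activity is low, 22 of the 23 named were in the file under a matched symbol and all 22 were tested. Of these 1 was called higher (4.55%, beside 12.5% of all genes tested) and 6 lower (27.3%, beside 13.3%), with a median log2 fold change of −0.13 (DESeq2 called 2 higher and 5 lower). Over all fits 3 to 7 were called lower. The 3 came with at least 10 counts required in every library, which leaves out IRS2, KLHL24 and SESN1. GABARAPL1, an autophagy gene, was measured at 6.96, 11.9 and 10.0 CPM with DMSO and at 33.0, 36.3 and 28.4 CPM with abemaciclib, a 3.38-fold rise (edgeR adjusted P = 1.54e-06). CDKN1B, which encodes the CDK inhibitor p27, fell from 84.7, 69.8 and 71.5 CPM to 42.7, 49.1 and 39.2 CPM (log2 fold change −0.79, edgeR adjusted P = 0.000158). BTG1, an antiproliferative gene, fell from 159, 160 and 198 CPM to 121, 124 and 103 CPM (log2 fold change −0.57, edgeR adjusted P = 0.000472), and 503 bases of its last exon are shared with LINC01619 on the same strand. KLHL24 fell by 1.53 on the log2 scale (edgeR adjusted P = 0.00311). FBXO32, which encodes the ubiquitin ligase atrogin-1, fell by 0.84 (edgeR adjusted P = 0.00826) and was not called without DMSO replicate 3 (log2 fold change −0.71, edgeR adjusted P = 0.0565). IRS2 and SESN1, given with their other roles, were the remaining 2. These genes have other regulators too, and FOXO activity was not measured.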

How the data were processed

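Per the labels and the study's methods, RNA was sequenced from 3′ end libraries (Lexogen QuantSeq), and the authors trimmed reads with BBDuk, aligned them with STAR (version 2.7.5b) to hg38 and made gene counts with featureCounts (version 2.0.1) on GENCODE annotation. The deposited table holds whole-number counts per gene for the 6 libraries, with no normalization. Rows for the Y copy of the pseudoautosomal genes (44 of 60656) were left out, and symbols were matched by identifier for 60401 of the 60612 genes left. RB1-knockout libraries and other assays of the study were not analysed here, and a few of the core pathway genes and 1 of the 3 family shares are not reported here, and the 2 shares given say nothing of that one.

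Genes were filtered with filterByExpr (10863 kept), scaled by TMM and tested with edgeR (version 4.0.16, R 4.3.3) by the quasi-likelihood F test, two-sided, with no covariate, and P values were adjusted by the Benjamini-Hochberg method over all genes tested. A gene was called at an adjusted P under 0.05. Levels (CPM) are counts relative to the TMM-scaled library size, SE is the log2 fold change divided by the square root of F, and intervals are 95%. Shares within gene families were compared by exact permutation tests over samples, adjusted over 3. The fit was tested on simulated data. DESeq2 (version 1.42.0) and the other alternatives are listed with their effect in the closing section. Replicate pairs within a group differed by more than counting noise, with chi-square per degree of freedom from 2.78 to 6.79, so none was a repeated library. The highest values, 6.43 and 6.79, were those of the pairs with abemaciclib replicate 3.

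The 9 genes and the lists were chosen with earlier results of these data known, and the lists were written from general knowledge. Genes named beside the 9 were 16 core pathway genes and, from the lists, at most 20 called genes that averaged 5 CPM or more and whose groups did not overlap, taken by adjusted P. MKI67, TK1 and CCNA2 were named as a check of the treatment. For the called core gene with the largest absolute log2 fold change, the 3 genes with the highest Pearson r of log2 CPM (prior count 2) were named. Gene positions came from GENCODE on GRCh38 and promoter windows from RefSeq GRCh38.p14, which held 16 windows for the 9 genes.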

Additional observations from a re-analysis of the deposited data

How the results depend on the processing

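The fits were repeated with DESeq2, DESeq2 size factors, scaling by total counts alone, no filter on low counts, at least 10 counts in every library, the replicate number as a block, and each library left out. PIK3R1 was called higher in every one. Of the 9 genes, 1 to 2 were called higher with a library left out, 2 without abemaciclib replicate 3, where AKT2 was called at a log2 fold change of 0.29 (range 0.11 to 0.29). PIK3CA lay near 0, and its sign turned with DESeq2 (0.0030) and with the replicate block (0.0017), and it ran from −0.17 to 0.19 with a library left out. Signs also turned with a library left out for PIK3CB (−0.038 to 0.14), RPTOR (−0.22 to 0.15), TSC1 (−0.029 to 0.23), RICTOR (−0.25 to 0.12), AKT1S1 (−0.36 to 0.092), TBC1D7 (−0.40 to 0.023) and PIK3IP1 (−0.24 to 0.31). None of these was called in any fit.

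With the replicate block PIK3R1 had a log2 fold change of 0.60 (edgeR adjusted P = 0.00701). Deviations of same-numbered libraries from their group means correlated at −0.065, 0.0015 and −0.11. With 3 libraries in each group, such values cannot settle whether same-numbered libraries were handled together. The block called 1139 genes higher and 1280 lower, against 1354 and 1442 without it. FNIP1 and THEM4 were not called with it (edgeR adjusted P = 0.0526 for each). DESeq2 called 1069 higher and 1166 lower. The median log2 fold change of all genes stayed between −0.027 and 0.0031. PIK3CA, PIK3CB, MTOR and RPTOR, the genes with the fewest counts, had SEs of 0.21 to 0.24, and small differences in them were not detectable at this depth.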
